A study of Mus musculus with 4 samples.

Results

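The 8 genes described here belong to the MHC class II pathway: Cd74, H2-Aa, H2-Ab1, H2-Eb1, H2-Ea, H2-DMa, H2-DMb1 and Ciita. They are 8 of the 55357 genes counted. They were taken by symbol, and were picked because earlier values of the same libraries showed them in microglia or macrophages and in endothelial cells. Their Diabetic against Control values in those 2 kinds of cell are therefore a description: fitted values and counts of calls are printed, and no result is read from them.

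MHC class II molecules sit on the surface of antigen-presenting cells and show peptides, cut from engulfed protein, to CD4 T cells. B cells, dendritic cells and many macrophages make them constantly, whereas microglia at rest make little and endothelial cells mainly when exposed to interferon gamma. Nearly all class II genes are switched on together by the co-activator encoded by Ciita, which is recruited to conserved boxes in their promoters.

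The study measured single-cell RNA from mouse retina enriched with magnetic beads for CD31, a surface protein of endothelial cells that many leukocytes also carry. There were 2 libraries labelled as control (Control 1 and Control 2) and 2 labelled as diabetic (Diabetic 1 and Diabetic 2). The labels used here give no strain, sex, age, number of animals or way of inducing diabetes for either group, and do not say that libraries came from separate animals. Any p-value then measures only the spread between these libraries. All series of 4 values below are in the order Control 1, Control 2, Diabetic 1, Diabetic 2.

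Of 21410 barcodes holding 29792902 to 58792636 UMIs (unique molecular identifiers, each 1 counted RNA molecule) per library, 19716 were kept. The kept cells per library numbered 5868, 2438, 7891 and 3519, with median UMIs between 3391 and 5126. Pairs of libraries shared 5 to 9 barcodes, and 0 of them fell in the same gate of microglia or macrophages or of endothelial cells. Cells were assigned by markers that exclude the 8 genes. A microglia or macrophage had UMIs of at least 7 of 17 myeloid markers, and an endothelial cell had UMIs of at least 10 of 17 endothelial markers with few markers of other cells. These gates held 49, 23, 62 and 33 microglia or macrophages and 572, 213, 1307 and 545 endothelial cells. All 17 myeloid markers were detected in the first gate and all 17 endothelial markers in the second, in each of the 4 libraries. Just inside the myeloid limit lay 7, 5, 10 and 3 cells, and 1 marker below it lay 6, 4, 17 and 11. For the endothelial limit these numbers were 56, 19, 121 and 21 inside, and 99, 32, 160 and 64 below.

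Of the 8 genes, 6 lie together on chromosome 17 (H2-DMa at chr17:34119541-34139101, H2-DMb1 at chr17:34153072-34160230, H2-Ab1 at chr17:34257689-34269419, H2-Aa at chr17:34282744-34287823, H2-Eb1 at chr17:34305867-34316674 and H2-Ea at chr17:34341959-34344645, GRCm38). Ciita lies at chr16:10480059-10528418. H2-Aa and H2-Ea are on the minus strand and the others on the plus strand. Because the class II genes are known for a shared promoter layout, the bases before the start sites of 2 of the chains are shown. They are RefSeq promoter windows of build GRCm38.p6, printed 5′ to 3′ in the direction of the gene and ending at the base before the start site. Capitals mark matches to TGATTGG (the core of the Y box), CTAGNAAC (a form of the X box) or TGACGTCA (a cyclic AMP response element, part of the X box region in some class II genes).
H2-Aa, chr17:34287824-34287973, minus strand: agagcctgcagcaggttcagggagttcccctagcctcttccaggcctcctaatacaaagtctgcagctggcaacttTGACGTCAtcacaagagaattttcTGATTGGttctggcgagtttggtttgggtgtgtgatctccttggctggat
H2-Eb1, chr17:34305717-34305866, plus strand: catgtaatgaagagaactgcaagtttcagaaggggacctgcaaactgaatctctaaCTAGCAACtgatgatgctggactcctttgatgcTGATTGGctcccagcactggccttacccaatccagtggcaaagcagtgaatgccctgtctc

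The Y box letters began 50 bases before the start site of H2-Aa, 61 before that of H2-Eb1 and 63 before that of H2-DMb1. The X box form was found in H2-Eb1 and H2-DMb1, with 25 and 26 bases between it and the Y box letters. Searched on both strands over 250 bases before the start, TGATTGG was in 7.23% of all 32851 promoter windows, CTAGNAAC in 3.06%, TGACGTCA in 1.55%, and the first 2 together in 0.21%. The 2 windows of H2-DMa, chr17:34122682-34122831 and chr17:34125368-34125517, held none of the 3 strings. Both lie inside the annotated gene, which begins at 34119541, so the bases before that position were not searched. The H2-DMb1 window, chr17:34153041-34153190, lies partly inside its annotated gene, which begins at 34153072. The H2-DMb1 distances are counted from the RefSeq start site and not from that position. A match describes the letters only, and no binding was measured.

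In 3 of the 4 libraries most of the class II RNA was in a few leukocytes, and in Diabetic 2 most of it was in barcodes with endothelial markers. Cd74, H2-Aa, H2-Ab1 and H2-Eb1, called the 4 core genes below, had 1030, 1257, 4562 and 758 UMIs in the kept cells. The leukocyte gates (microglia or macrophage, monocyte-like, B cell-like, T or NK cell-like and neutrophil-like) held 75.5%, 87.7%, 66.6% and 27.7% of them in 1.26%, 1.44%, 1.88% and 1.85% of the cells. B cell-like cells, defined by UMIs of at least 4 of 11 B cell markers, numbered 14, 6, 19 and 1. They held 728 of the 1030 UMIs in Control 1, 1018 of 1257 in Control 2, 1230 of 4562 in Diabetic 1 and 28 of 758 in Diabetic 2. The 2 Control libraries thus had most of their class II RNA in 20 B cell-like cells. Microglia or macrophages held 4.85%, 6.68%, 22.4% and 18.9%, and endothelial cells 4.47%, 2.55%, 7.69% and 17.7%. Gated endothelial cells and barcodes that carried endothelial markers but passed no gate together held 13.9%, 7.16%, 23.8% and 57.5%. The ungated ones held 97, 58, 736 and 302 core UMIs. Of these, 88, 53, 514 and 263 were in barcodes with more pericyte markers than the endothelial gate allows. An ungated barcode can hold more than 1 cell, leukocytes among them, and the source of its RNA was not tested.

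**Figure D1:**
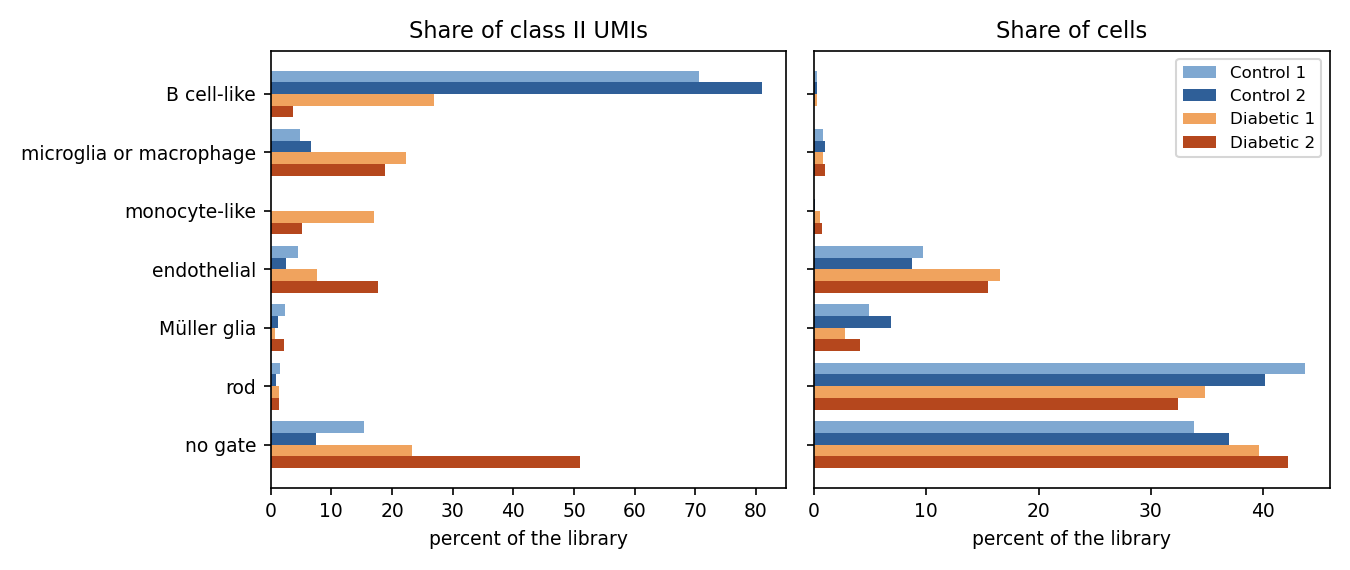
Bars give, for each of the 4 libraries (colours), the percent of the UMIs of Cd74, H2-Aa, H2-Ab1 and H2-Eb1 (left) and the percent of the kept cells (right) in each class of cells. B cell-like cells held 70.7% and 81.0% of the UMIs in the Control libraries and 27.0% and 3.69% in the Diabetic libraries, in at most 0.246% of the cells.

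Ciita, the master switch of the class, was at the limit of detection outside B cells. It had UMIs in 8 of 14, 5 of 6, 7 of 19 and 1 of 1 B cell-like cells. Among microglia or macrophages it had 3 UMIs in 2 cells of Diabetic 1 and 0 in the other 3 libraries, where 0 allows a share of up to 6.12% in Control 1, 13.04% in Control 2 and 9.09% in Diabetic 2. These limits are on cells with a UMI, not on cells expressing the gene. In endothelial cells it was found in 1, 1, 9 and 7 cells, each with a single UMI, which is 0.175%, 0.469%, 0.689% and 1.28% of them. Rods, which serve here as the cells that should lack class II RNA, had Ciita in 0.0779%, 0.102%, 0.0364% and 0% of cells. The endothelial share was above the rod share in each of the 4 libraries, from at most 9 UMIs. At 1000 UMIs per cell the endothelial shares were 0.178%, 0%, 0% and 0.372% and those of rods 0.0468%, 0%, 0% and 0%, so the order was seen in 2 of 4 libraries. Endothelial cells had median depths of 3333.5, 4377, 3272 and 4380 UMIs, and rods had 2100, 3012, 2100 and 3178.5 UMIs.

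Among microglia or macrophages, the chains of the class II molecule were found in a minority of cells in both groups, and their summed levels lay higher in the 2 Diabetic libraries. Levels are in CPM, a gene's UMIs summed over the gate and scaled to a common total of UMIs. H2-Aa, the alpha chain of the I-A molecule, was at 34.0, 25.5, 701 and 170 CPM, in 2.04%, 4.35%, 14.5% and 9.09% of cells. The 2 groups did not overlap, and both Control levels rested on 1 cell each (5 and 2 UMIs). H2-Ab1, its beta chain, was at 34.0, 102, 539 and 152 CPM, in 8.16%, 21.7%, 33.9% and 27.3% of cells. The levels and the shares of H2-Ab1 both lay higher in the Diabetic libraries, with Control 2 close to Diabetic 2. H2-Eb1, the beta chain of the I-E molecule, was at 13.6, 38.2, 442 and 212 CPM, in 1, 2, 5 and 2 cells. For H2-Eb1 the share of positive cells did not separate the groups (2.04%, 8.70%, 8.06% and 6.06%), although the levels did.

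Cd74 encodes the invariant chain, which fills the groove of new class II molecules until they reach the peptide-loading compartment, and lies at chr18:60803848-60812652 (GRCm38, plus strand). It was at 258, 905, 1985 and 334 CPM among microglia or macrophages, in 22.4%, 21.7%, 32.3% and 24.2% of cells. The groups overlapped, since Control 2 lay above Diabetic 2. H2-DMa and H2-DMb1 form the DM molecule, which exchanges the filler peptide for antigen. H2-DMa was the most widely detected member here, in 49.0%, 26.1%, 53.2% and 60.6% of cells, at 238, 166, 255 and 273 CPM. Control 1 lay closer to both Diabetic libraries than to Control 2. Of the 83 cells with an H2-DMa UMI, 36 had no UMI of the 4 core genes. H2-DMb1 was at 27.2, 51.0, 53.9 and 54.6 CPM, from 4, 4, 15 and 9 UMIs, and has a closely similar neighbour, H2-DMb2, which makes its count uncertain.

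A few cells held most of this RNA. The cell with the most core UMIs held 16 of 50 in Control 1, 65 of 84 in Control 2, 459 of 1020 in Diabetic 1 and 87 of 143 in Diabetic 2. Cells with at least 10 core UMIs numbered 1, 2, 6 and 2, and 36, 15, 32 and 19 cells had none. The median cell had 0 in each library. With the top cell of each library left out, a choice made on the measured value, the 4 core genes summed to 233, 286, 2119 and 345 CPM, against 340, 1071, 3668 and 868 with all cells. Control 2 and Diabetic 2 then lay close together, with Diabetic 1 far above both. In the same setting H2-Aa was at 0, 0, 393 and 49.3 CPM.

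**Figure D2:**
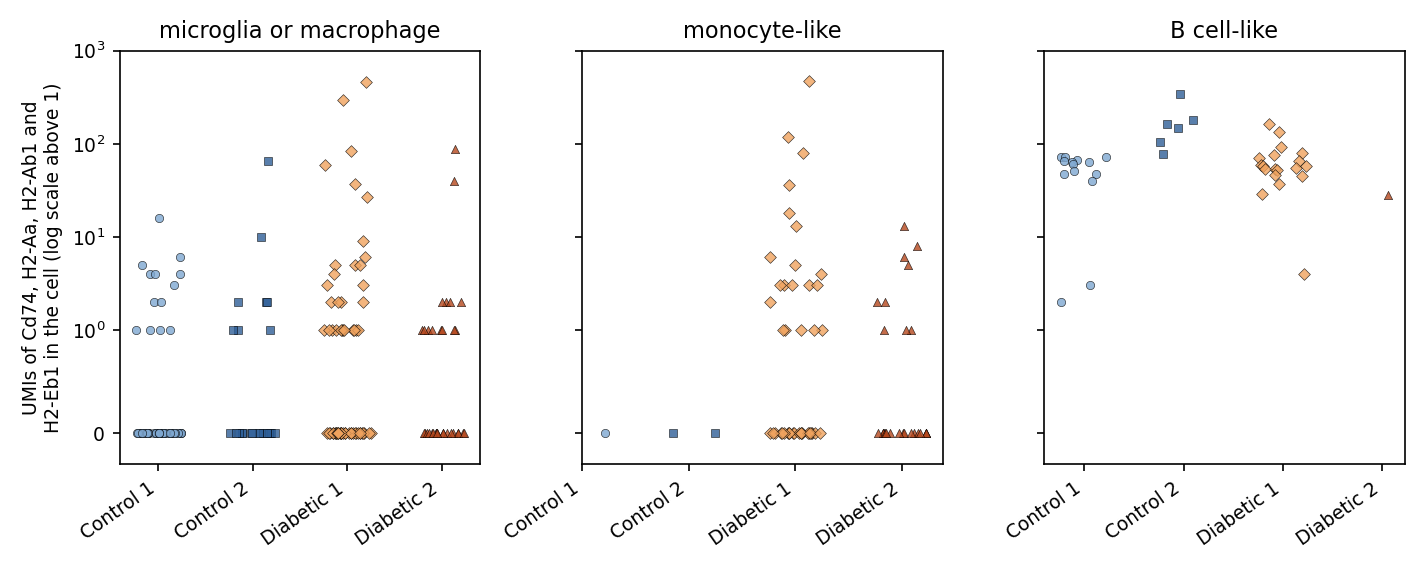
Each point is 1 cell of the named class, placed by its UMIs of Cd74, H2-Aa, H2-Ab1 and H2-Eb1 (log scale above 1) and by library. Most microglia or macrophages lie at 0 in all 4 libraries, with single cells of up to 459 UMIs, while B cell-like cells lie at 2 to 342.

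The share of microglia or macrophages with any core UMI was 26.5%, 34.8%, 48.4% and 42.4%, a difference of 14.7 percentage points between the group means. The median depth of these cells was also higher in the Diabetic libraries, at 1435, 1295, 4627 and 2355 UMIs. Thinned to 1000 UMIs per cell, with 13, 7, 12 and 6 shallower cells left out, the shares were 16.7%, 25.0%, 26.0% and 22.2%. The thinned difference was 3.28 points, and the shares of the groups overlapped. Single genes differed in this. Thinned H2-Aa was in 0%, 0%, 12% and 7.41% of cells (0, 0, 6 and 2 cells). Thinned H2-Ab1 was in 2.78%, 6.25%, 14.0% and 18.5% (1, 1, 7 and 5 cells). The shares of these genes did not overlap between the groups, but their exact 95% intervals, which cover counting error only, did. The thinning was a single random draw. Thinned Cd74 was in 16.7%, 18.75%, 22.0% and 11.1%, with overlap. Thinned H2-DMa was in 30.6%, 12.5%, 18.0% and 18.5% of cells, with both Diabetic values between the 2 Control values.

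In the fit across genes (edgeR quasi-likelihood test, 2577 genes tested), 39 genes were higher and 15 lower in Diabetic microglia or macrophages at an adjusted p under 0.05, which is 1.51% and 0.582% of those tested (2.1% in either direction). Of the 8 members 6 passed the low-count filter (all but Ciita and H2-DMb1), and 4 of them are among the higher calls, a count that the choice of the genes by this contrast already holds. The fitted log2 differences were 3.88 ± 0.68 (SE) for H2-Aa, 2.61 ± 0.61 for H2-Ab1, 3.90 ± 0.58 for H2-Eb1, 5.95 ± 1.18 for H2-Ea, 1.09 ± 0.63 for Cd74 and 0.39 ± 0.33 for H2-DMa. Without Diabetic 1, edgeR called 0 of 3164 genes (125 at an unadjusted p under 0.05), and Cd74 was at -0.68, H2-DMa at 0.49, H2-Ab1 at 1.40, H2-Aa at 2.52 and H2-Eb1 at 3.27. DESeq2 on all 4 libraries called 2 of the members, H2-Aa and H2-Eb1, and put H2-Ab1 at 2.53 and H2-Ea at 5.95. Both Diabetic libraries lay above both Control libraries in CPM for 5 of the 6 members that passed, and for 20.8% of all genes tested.

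Some marker lists of other leukocytes differed between the groups. The monocyte list was higher in the Diabetic libraries, and the B cell and dendritic cell lists were lower. The monocyte list (11 genes) summed to 34.0, 178, 1107 and 1845 CPM in the gate, with 3, 2, 10 and 11 of its genes detected and Ly6c2, a defining marker, at 0 in both Control libraries. Of the cells in the gate, 0, 0, 8 and 2 had at least 3 monocyte markers. Without them, a setting chosen after seeing the data, 8 genes were called in place of 54, and 2 members (H2-Aa and H2-Eb1) in place of 4. The 4 core genes were then at 340, 1071, 4287 and 971 CPM, and the fitted differences were 4.11 for H2-Aa, 2.82 for H2-Ab1, 4.15 for H2-Eb1, 6.19 for H2-Ea and 1.32 for Cd74. The B cell list (11 genes) summed to 177, 268, 129 and 146 CPM in the gate, with 3, 2, 4 and 3 of its genes detected. Cd79a and Ms4a1 were at 0 in all 4 libraries, while Ighm and Bank1 were detected in all 4. The gate itself admits only cells with fewer than 4 B cell markers. The dendritic cell list (15 genes) summed to 802, 790, 579 and 704 CPM, with 4, 3, 7 and 6 of its genes detected. Xcr1 and Clec9a were at 0 in all 4 libraries. Itgax and Clec10a were at 0 in both Control libraries and were detected in both Diabetic libraries. Cells called monocyte-like had at least 3 monocyte markers and fewer myeloid markers than the gate asks for. They numbered 1, 2, 42 and 26, and had 0, 0, 774 and 39 core UMIs. In Diabetic 1 a single monocyte-like cell held 473 of the 774. With 3 monocyte-like cells in the Control libraries, their levels cannot be set against those of the Diabetic libraries.

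Within the gate, macrophage-like and microglia-like cells were told apart by markers that are not class II genes. Macrophage-like cells had at least 3 of 14 markers of border macrophages and at least as many of them as of the 12 microglial markers. The fit paired both kinds within a library and used the 3 libraries with at least 5 cells of each, namely Control 1 (12 macrophage-like and 29 microglia-like cells), Diabetic 1 (15 and 36) and Diabetic 2 (6 and 22). Cd74 was at 640, 3464 and 1583 CPM in macrophage-like cells of these libraries and at 135, 1453 and 32.6 CPM in microglia-like cells. H2-Aa was at 133, 1455 and 838 CPM against 0, 501 and 8.14 CPM. Both genes were higher in macrophage-like cells in 3 of 3 libraries. H2-DMa went the other way in Diabetic 1 and Diabetic 2, at 240, 131 and 124 CPM against 223, 336 and 317 CPM.

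In that comparison 0 members passed the threshold (edgeR quasi-likelihood test with library as a block, 1264 genes tested, of which 35 or 2.77% were higher and 44 or 3.48% lower, 6.25% in either direction). The log2 difference was 2.55 ± 0.67 (SE) for Cd74 (edgeR adjusted p = 0.0665), 3.06 ± 0.83 for H2-Aa (edgeR adjusted p = 0.0744), 2.91 ± 1.00 for H2-Eb1 (edgeR adjusted p = 0.147), 2.43 ± 0.81 for H2-Ea (edgeR adjusted p = 0.148), 1.5 ± 0.48 for H2-Ab1 (edgeR adjusted p = 0.121) and -0.88 ± 0.42 for H2-DMa (edgeR adjusted p = 0.298). Of the 6 members tested, 5 had an unadjusted p under 0.05, and DESeq2 called 2. Left out in a setting chosen after seeing the data were cells with at least 3 monocyte markers, 5 macrophage-like cells of Diabetic 1 and 1 of Diabetic 2. In that setting 996 genes were tested, 48 were called higher and 43 lower, and edgeR called 5 of the 6 members higher: Cd74 (3.12, edgeR adjusted p = 0.00986), H2-Aa (3.82, edgeR adjusted p = 0.0101), H2-Ab1 (2.29, edgeR adjusted p = 0.0191), H2-Ea (3.38, edgeR adjusted p = 0.0223) and H2-Eb1 (3.805, edgeR adjusted p = 0.0269). The members' calls thus differed with and without these 6 cells, and the 0 calls with them kept stand as the result of the comparison. The microglia-like cells of Diabetic 1 owed 459 of their 495 core UMIs to 1 cell. That cell had UMIs of Tmem119 and Cx3cr1, which mark microglia, and of Ms4a7 and many of Apoe. Microglia-like cells had H2-Eb1 UMIs in this cell alone in all 4 libraries.

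The genes most like the class II chains among microglia or macrophages were sought by setting the 12 cells with at least 3 UMIs of H2-Aa, H2-Ab1 and H2-Eb1 together (1, 1, 8 and 2 per library) beside the other 155. Of 183 genes with at least 50 UMIs in the 12 cells, the largest ratios of mean CPM were for Ccl7 (15.2), Ccl12 (9.53), Pf4 (6.25), Ccl2 (4.63), Apoe (3.18), Lyz2 (2.82), Tmem176b (2.77) and the mitochondrial mt-Nd2 (2.47). Pf4, a marker of border macrophages, Apoe, which carries lipid, and Lyz2, the lysozyme of phagocytes, were higher in the class II cells in 4 of 4 libraries. The chemokine genes Ccl7, Ccl12 and Ccl2 were higher in 1, 2 and 2 of the 4 libraries. The limit of 50 UMIs was set on the class II cells alone, so genes could pass by being high in them, and these ratios are a description. Of the 12 cells 8 came from Diabetic 1, and Ccl7 was higher only in Control 2, which had 1 such cell.

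H2-Ea encodes the alpha chain of the I-E molecule. Mouse strains differ in it: those with the b haplotype, such as C57BL/6, make no H2-Ea RNA, and the GRCm38 annotation lists the gene as a polymorphic pseudogene. H2-Ea RNA was present in all 4 libraries, with 77, 79, 491 and 24 UMIs in kept cells.

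Most cells rich in the other chains had H2-Ea UMIs, and some had none. Of the 45 cells with at least 20 UMIs of H2-Aa, H2-Ab1 and H2-Eb1 together, 35 had H2-Ea at a ratio to those chains of 0.0714 to 0.769 (median 0.315). The other 10 cells had 0 H2-Ea UMIs beside 576 chain UMIs, where 3 UMIs would give a ratio of 0.00521. That limit holds for the 10 cells pooled and not for a single cell. The richest of them, a B cell-like cell of Control 2, had 158 chain UMIs and no H2-Ea. The shallowest had 21 chain UMIs, and the lowest ratio above 0 rested on 2 H2-Ea UMIs beside 28. Cells this shallow cannot be sorted into cells with and without the RNA. Cells with and without H2-Ea UMIs were found in each library. Those without numbered 2 of 11 in Control 1, 2 of 6 in Control 2, 4 of 25 in Diabetic 1 and 2 of 3 in Diabetic 2. They were 8 of the 33 B cell-like cells, 1 of the 5 microglia or macrophages, 0 of the 3 monocyte-like cells and 1 of the 4 other barcodes. Of the other chain UMIs, H2-Aa was 38.7% in cells without H2-Ea and 46.6% in cells with it, and H2-Ab1 was 26.7% and 27.3%. H2-Eb1, whose protein pairs with that of H2-Ea, was 34.5% without H2-Ea and 26.2% with it, and was the higher without H2-Ea in 4 of 4 libraries. Among microglia or macrophages H2-Ea was at 0, 12.7, 521 and 72.8 CPM, and the 145 UMIs of Diabetic 1 came from 7 cells.

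**Figure D3:**
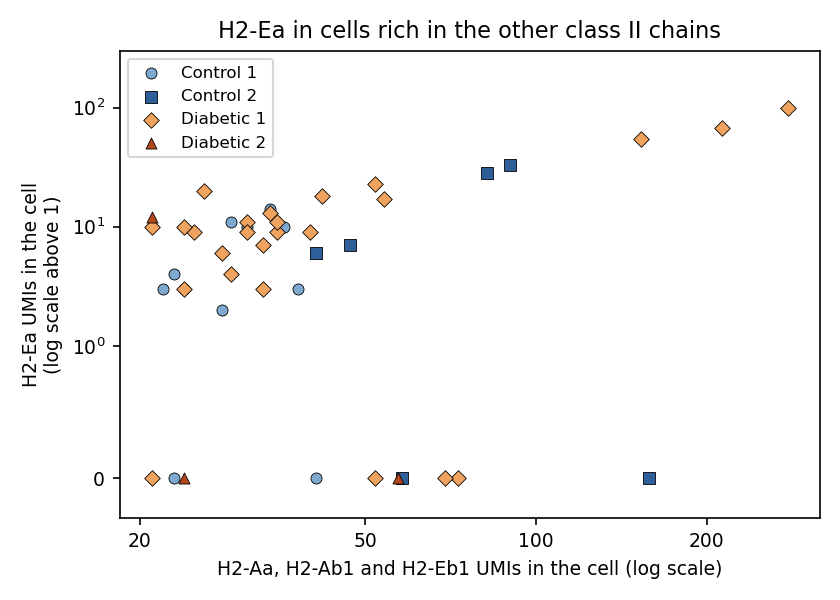
Each point is 1 of the 45 cells with at least 20 UMIs of H2-Aa, H2-Ab1 and H2-Eb1 together (horizontal, log scale), with its H2-Ea UMIs (vertical, log scale above 1) and library. The 10 cells at 0 reach 158 chain UMIs and come from all 4 libraries.

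In endothelial cells, class II RNA was found in a small share of cells. Both Diabetic libraries lay above both Control libraries in CPM for 3 of the 4 core genes and for 23.7% of all genes tested. A few cells held much of the class II RNA: 1, 1, 5 and 4 cells had at least 10 core UMIs (at most 26), together 10 of 46, 12 of 32, 91 of 351 and 62 of 134. Cd74 was at 4.97, 9.51, 28.4 and 18.5 CPM, in 1.57%, 2.35%, 4.97% and 3.49% of cells. Its Diabetic levels lay above both Control levels. After thinning to 1000 UMIs, Cd74 was in 0.355%, 0%, 2.41% and 0.931% of cells (2, 0, 31 and 5 cells). These shares did not overlap between the groups, although the exact 95% intervals of Control 1 and Diabetic 2 did. H2-Ab1 was at 6.11, 7.32, 18.7 and 16.1 CPM, in 2.27%, 3.29%, 6.04% and 4.40% of cells, again without overlap. Thinned to 1000 UMIs it was in 0.533%, 0.474%, 1.94% and 0.372%, with Diabetic 2 lowest. H2-Aa was at 5.73, 2.19, 10.9 and 7.55 CPM, in 1.75%, 1.41%, 2.91% and 2.57% of cells. The groups did not overlap for H2-Aa, although Control 1 and Diabetic 2 differed by less than the 2 Control libraries did, and thinned it was in 0.178%, 0.474%, 0.855% and 0%. H2-Eb1 was at 0.764, 4.39, 2.77 and 3.78 CPM, from 2, 6, 16 and 11 UMIs, and the groups overlapped.

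The remaining members were rarer still in endothelial cells. H2-DMa was in 0.350%, 2.35%, 1.22% and 1.28% of endothelial cells and in 1.01%, 1.12%, 1.60% and 1.93% of rods, so its endothelial share was at or below this background in 3 of the 4 libraries. H2-DMb1 was in 2, 1, 11 and 7 endothelial cells. H2-Ea was in 0, 1, 10 and 0 endothelial cells, where 0 allows a share of up to 0.524% in Control 1 and 0.550% in Diabetic 2.

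Any core gene was detected in 4.72%, 4.69%, 10.7% and 7.52% of endothelial cells (exact 95% intervals 3.13% to 6.79%, 2.27% to 8.46%, 9.09% to 12.5% and 5.45% to 10.1%, counting error only). In rods the shares were 0.584%, 1.02%, 2.37% and 0.702%. After each cell was thinned to 1000 UMIs, the endothelial shares were 0.888%, 0.948%, 4.43% and 1.86%. The thinned rod shares were 0.234%, 0.121%, 0.713% and 0%. The endothelial share was above that of rods in each library on both scales, and Diabetic 1, which had the highest endothelial share, also had the highest rod share. UMIs of at least 3 of the 4 core genes were found together in 1, 3, 14 and 6 endothelial cells and in 0 of the 7433 rods. Endothelial cells with at least 2 of the 4 core genes numbered 6, 5, 39 and 16. They had 0 UMIs of Ptprc, the common leukocyte antigen, and 0 of the myeloid genes Csf1r and C1qa. The endothelial gate allows at most 2 myeloid markers, and Csf1r and C1qa are among these markers. In the 545, 203, 1167 and 504 cells with none of the 4 genes, Ptprc was in 0, 0, 2 and 0 cells. Csf1r was in 1, 1, 6 and 3 of them and C1qa in 2, 1, 10 and 3, so the 0 counts do not set the 2 kinds of cell apart. Of the cells with at least 2 core genes, 2, 2, 32 and 12 had no myeloid gate marker at all. These were 33.3%, 40%, 82.1% and 75%, against 85.3%, 81.3%, 80.9% and 77.0% of the cells with none of the 4 genes. The myeloid list summed to 97.9, 87.9, 34.6 and 42.2 CPM in the cells with at least 2 core genes. It summed to 40.8, 39.3, 58.2 and 61.4 CPM in the cells with none. The median depths of the cells with at least 2 core genes were 5706.5, 18345, 5072 and 9855.5 UMIs, against 3294, 4228, 3133 and 4209.5. Of the B cell gene Cd79a, 1 of the 16 cells of Diabetic 2 had a UMI.

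**Figure D4:**
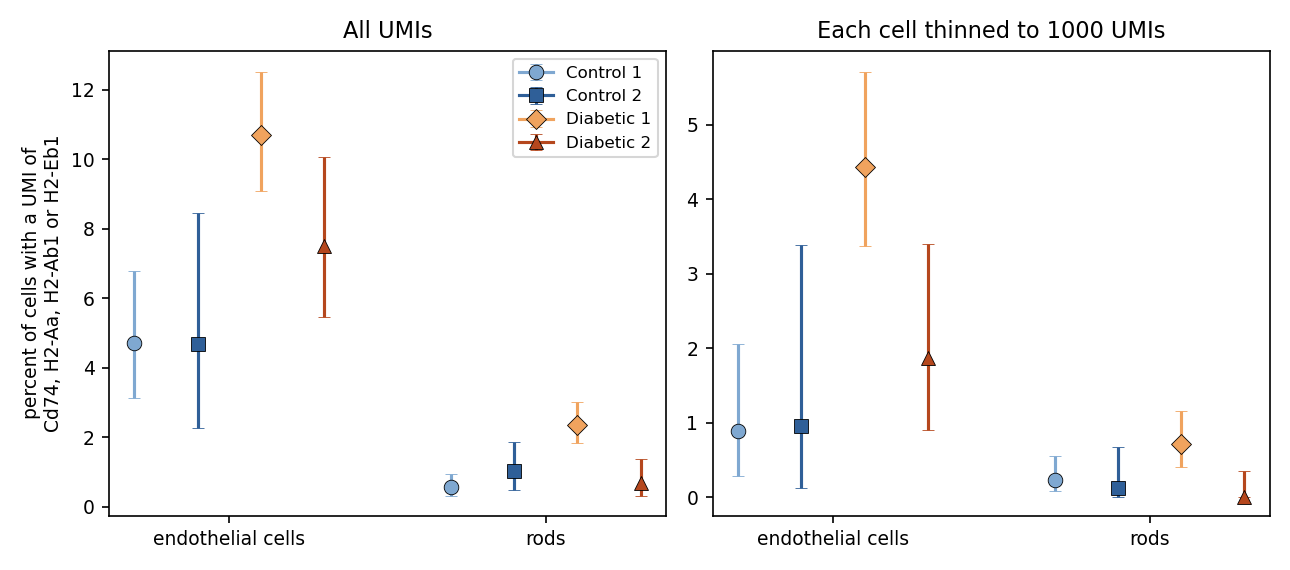
Points give the percent of endothelial cells (left in each panel) and of rods (right) with a UMI of Cd74, H2-Aa, H2-Ab1 or H2-Eb1 in the 4 libraries, from all UMIs and from cells thinned to 1000 UMIs. Bars are exact 95% binomial intervals, which cover counting error only. Endothelial shares of 4.69% to 10.7% lie above rod shares of 0.584% to 2.37%.

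Class II RNA differed between endothelial cells grouped by venous and arterial markers. Venous-like endothelial cells (at least 5 of 13 venous markers, and more of them than of arterial ones) numbered 18, 11, 114 and 71, and had the 4 core genes at 110, 167, 109 and 111 CPM. In arterial-like cells the level was 14.4, 39.7, 95.2 and 51.3 CPM, and in the other endothelial cells 10.7, 2.09, 40.2 and 15.8 CPM. Venous-like cells had the highest level of the 3 kinds in each of the 4 libraries, and the Control levels rested on single cells, with 10 of 18 UMIs in 1 cell of Control 1 and 12 of 18 in 1 cell of Control 2. Without the richest cell of each library, a choice made on the measured value, the levels were 52.8, 67.2, 84.0 and 91.4 CPM, with both Diabetic libraries above both Control libraries. The arterial-like level of Diabetic 1, 95.2 CPM, kept its own richest cell, which had 17 core UMIs. It is therefore not set against the venous-like level without its richest cell. A core gene was detected in 38.9%, 27.3%, 32.5% and 23.9% of venous-like cells, against 3.50%, 1.25%, 7.03% and 3.66% of the other endothelial cells. The median depth of venous-like cells was 7369, 7701, 6604 and 8118 UMIs, against 3119, 4038, 2904 and 3809.

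The venous-like share of endothelial cells was 3.15%, 5.16%, 8.72% and 13.03%, and these cells held 39.1%, 56.25%, 29.3% and 59.7% of the endothelial core UMIs. Selp and Sele, adhesion genes on the venous list, were at 0 in the endothelial cells of both Control libraries. Without them among the markers, 18, 11, 113 and 70 cells were venous-like. No other marker was taken out, and Icam1, which was itself higher in the Diabetic libraries, stayed on the list. The venous list as a whole was also higher in the Diabetic libraries, at 400, 519, 1239 and 2167 CPM, so more venous-like cells and higher marker levels per cell cannot be told apart. In bead-enriched cells, a share also depends on which cells were captured. With the venous-like cells left out, a setting chosen after seeing the data, the 4 core genes were at 11.4, 11.1, 51.3 and 24.6 CPM. The 2 Diabetic libraries remained above the 2 Control libraries for Cd74, at 3.26, 3.18, 22.8 and 8.21 CPM, and for H2-Ab1, at 4.48, 4.76, 16.8 and 10.0 CPM.

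**Figure D5:**
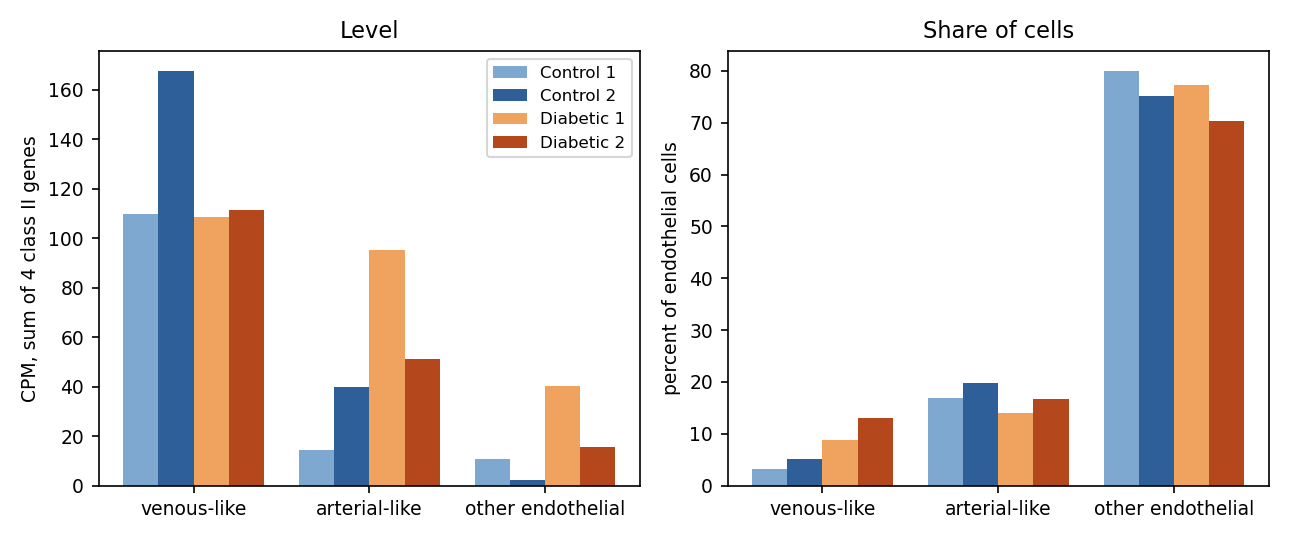
Bars give, per library, the summed level of Cd74, H2-Aa, H2-Ab1 and H2-Eb1 in CPM (left) and the percent of endothelial cells (right) for venous-like, arterial-like and other endothelial cells. Venous-like cells lie between 109 and 167 CPM in all 4 libraries, and their share goes from 3.15% and 5.16% in the Control libraries to 8.72% and 13.03% in the Diabetic libraries.

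In the fit over endothelial cells (edgeR quasi-likelihood test, 12083 genes tested), 97 genes (0.803%) were higher and 23 (0.19%) lower in the Diabetic libraries (0.993% in either direction). Only the 4 core genes passed the low-count filter, and 1 of them, Cd74, is among the higher calls, again a count that the choice of genes holds. The fitted log2 differences were 1.86 ± 0.35 (SE) for Cd74, 1.43 ± 0.30 for H2-Ab1, 1.11 ± 0.46 for H2-Aa and 0.61 ± 0.73 for H2-Eb1. Without Control 1, and likewise without Control 2, edgeR called 0 members (3 and 2 at an unadjusted p under 0.05), with Cd74 at 1.37 and 2.26 and H2-Ab1 at 1.30 and 1.52. H2-Eb1 was at -0.42 without Control 1 and 2.02 without Control 2. Without Diabetic 1, and likewise without Diabetic 2, 2 members were called. DESeq2 on all 4 libraries called 0 members, with Cd74 at 1.80. Both Diabetic libraries lay above both Control libraries in CPM for 3 of the 4, and for 23.7% of all genes tested.

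Other RNA in the endothelial gate moved with the groups as well. The erythrocyte list (6 genes) summed to 838, 82.7, 3649 and 6342 CPM and the rod list (14 genes) to 24842, 24706, 19915 and 8337 CPM. The myeloid gate list (17 genes) summed to 40.1, 42.4, 55.7 and 59.4 CPM, with Ms4a7 at 0 in all 4 libraries. The B cell gene Ms4a1 was at 0 in all 4, while Cd79a was in 0, 1, 6 and 2 of the endothelial cells with none of the 4 core genes. The part of these lists in the class II levels was not tested.

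Müller glia, the main glial cells of the retina, had UMIs of H2-Ab1 with few of its partner chain. H2-Ab1 was in 7.34%, 7.74%, 10.96% and 9.66% of them, at 5.98, 5.24, 15.4 and 7.43 CPM. Of the 72 Müller glia with H2-Ab1, 70 had no UMI of Cd74, H2-Aa or H2-Eb1. The same held for 29 of 29 rods with H2-Ab1, 66 of 123 such endothelial cells and 0 of 38 such B cell-like cells. Per H2-Ab1 UMI there were 0.0247 UMIs of H2-Aa in Müller glia, against 1.71 in B cell-like cells, 1.22 in microglia or macrophages, 0.569 in endothelial cells and 0.586 in rods. The Müller glia value rests on 2 UMIs of H2-Aa and 81 of H2-Ab1. H2-DMb1, H2-Ea and Ciita had 0 UMIs in Müller glia of all 4 libraries. Pericytes or smooth muscle cells had 0, 0, 2 and 1 core UMIs, and T or NK cell-like cells 0, 0, 12 and 0.

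Other genes of class II loading, transcription and induction were taken from lists drawn up with the members. Among microglia or macrophages, 0 of 12 tested genes of the loading list (other class II chains, cathepsins and the like), 0 of 5 of the transcription list, 0 of 5 of the interferon gamma list and 0 of 2 of the costimulation list were called in either direction by edgeR. At an unadjusted p under 0.05 there were 2, 1, 0 and 0, and DESeq2 called 0 in each list. Their median log2 differences were -0.03, -0.37, 0.44 and 0.36, beside 0.00 over all genes tested. Cst3, the cathepsin inhibitor cystatin C, was at 33254, 41722, 16572 and 24319 CPM and did not pass (log2 difference -0.84 ± 0.32, edgeR adjusted p = 0.285). Ctss, the cathepsin that trims the invariant chain, was at 4003, 5379, 4753 and 5925 CPM. Ctsd, another lysosomal protease, was at 2555, 3837, 2449 and 3205 CPM. Both overlapped between the groups. The transcription factor genes Irf8 and Spi1 were at 401, 370, 338 and 516 CPM and at 258, 306, 245 and 219 CPM.

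In endothelial cells, 0 of 12 genes of the loading list and 0 of 10 of the transcription list were called by edgeR (3 and 0 at an unadjusted p under 0.05, and 0 by DESeq2 in both). Of the interferon gamma list 1 of 23 was higher and 0 lower, and of the costimulation list 1 of 4 was higher and 0 lower. The medians were -0.01, -0.08, 0.31 and 0.31, beside -0.01 over all genes tested. Iigp1, an interferon-inducible GTPase, rose from 41.3 and 61.5 CPM to 95.2 and 117 CPM (log2 difference 1.11 ± 0.21, edgeR adjusted p = 0.0387, higher in 2 of 2 Diabetic libraries). Icam1, which holds leukocytes on the vessel wall, rose from 14.5 and 21.9 CPM to 51.7 and 107 CPM (2.19 ± 0.38, edgeR adjusted p = 0.0291, higher in 2 of 2 Diabetic libraries). Neither call held without Control 1 or without Control 2. Icam1 was not called without the venous-like cells (0.99, edgeR adjusted p = 0.214). Icam1 is itself 1 of the 13 venous markers, so that setting leaves out cells partly because they hold its UMIs. Psmb8, the interferon-inducible proteasome subunit, was at 108, 114, 139 and 158 CPM (0.45 ± 0.15, edgeR adjusted p = 0.211). Ctsl, a lysosomal protease, was at 156, 162, 202 and 210 CPM (0.40 ± 0.14, edgeR adjusted p = 0.227). Crebbp and Ep300, co-activators that work with the Ciita protein, were at 187, 164, 170 and 156 CPM and at 116, 128, 97.8 and 106 CPM.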

How the data were processed

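The deposited files hold raw UMI counts per gene and cell barcode for 4 libraries, made with Cell Ranger 7.0.0 and STAR 2.7.10b on mm10, per the submitters' processing notes. The gene annotation is not given in the sources used here. A barcode was kept if it held 500 UMIs and 300 genes or more, with no more than 20% of its UMIs mitochondrial. The members and lists were chosen with earlier results of these data known, and the gate thresholds were set after marker counts had been seen.

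Counts were summed per library and gate, and tested with edgeR 4.0.16 (quasi-likelihood test, TMM, low-count filter, two-sided, Benjamini-Hochberg adjustment over all genes tested, threshold 0.05) in R 4.3.3. DESeq2 1.42.0 was an alternative. The fits were tested on simulated data, drawn with the same spread setting for every gene. Such data do not mimic RNA held mostly by a few cells. Shares have exact Clopper-Pearson 95% intervals, which cover counting error only, and a count of 0 is given the limit of 3 cells of the total. Doublets were kept, and Scrublet's highest-scoring cells were left out in an alternative (scanpy 1.11.5, Python 3.11.15). An exact permutation test of 2 libraries against 2 cannot go below p = 0.333 (two-sided).

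Genes were named by rule: the 8 members, of each pathway list the called genes (at most 6) and up to 3 more by mean CPM, and the 8 genes most like the members. Of the 8 members, 4 had RefSeq promoter windows. Gene positions are from GENCODE vM21.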

Additional observations from a re-analysis of the deposited data

How the results depend on the processing

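The 54 genes called in microglia or macrophages became 127 without the low-count filter, 28 with DESeq2, 18 with Leiden clusters, 8 without cells with monocyte markers, 0 with a stricter gate (97 genes tested, 3 at an unadjusted p under 0.05 in edgeR) and 0 to 69 when 1 library was left out, the 0 being without Diabetic 1. The 4 members among them became 2 with DESeq2, 2 without cells with monocyte markers, 0 with the stricter gate and 0 to 5 without 1 library. In endothelial cells the 120 calls became 744 without the filter, 414 with Leiden clusters, 438 without cells rich in rod RNA, 743 without Scrublet doublets, 13 with a stricter gate and 79 without venous-like cells. Leaving out 1 library gave 0 (Control 2), 18 (Control 1), 440 (Diabetic 2) or 1654 (Diabetic 1). The 1 member became 2 without the filter, with Leiden clusters, without cells rich in rod RNA and without Scrublet doublets, 0 with DESeq2 and without venous-like cells, and 0 to 2 without 1 library. The 79 calls between macrophage-like and microglia-like cells became 280 without the filter and 34 to 120 without 1 library. Their 0 members became 2 with DESeq2, 4 without the filter, 2 without the cell with most class II UMIs, 5 without cells with monocyte markers and 0 to 0 without 1 library. Of the pathway lists, 0 genes in microglia or macrophages became 1 without the filter, 1 with the replicate block and 0 to 1 without 1 library. The 2 in endothelial cells became 5 without the filter, 4 without cells rich in rod RNA, 7 without Scrublet doublets, 0 with the stricter gate, 1 without venous-like cells and 0 to 17 without 1 library. The difference in share among microglia or macrophages went from 14.7 to 3.28 points after thinning, and to 10.6 to 18.9 points without 1 library. In endothelial cells it went from 4.41 to 2.23 points after thinning, 2.39 with the stricter gate, where Diabetic 2 (1.59%) lay below Control 1 (3.23%), and 2.82 to 6.0 without 1 library. The settings without venous-like cells, without cells with monocyte markers and without the richest cell were chosen after seeing the data. The causes were not tested.

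The labels tie same-numbered libraries by nothing but the number, and their deviations correlated with r = 0.117 in microglia or macrophages and 0.0318 in endothelial cells, which with 2 pairs does not show whether a day or batch was shared. The replicate block gave 153 calls (5 members, Cd74 among them with edgeR adjusted p = 0.0357) in microglia or macrophages and 162 (1 member) in endothelial cells, and without the block the macrophage-like comparison gave 98. Depth limits the rarest members: Ciita had 18 UMIs in 2637 endothelial cells.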

Other observations

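A large part of the class II RNA outside the leukocyte gates was in barcodes that passed no gate. Barcodes with endothelial markers and more pericyte markers than the endothelial gate allows numbered 541, 211, 943 and 487. They held 88, 53, 514 and 263 UMIs of Cd74, H2-Aa, H2-Ab1 and H2-Eb1, or 13.1, 15.5, 51.2 and 33.3 CPM. A UMI of these genes was in 9.61%, 10.9%, 15.7% and 17.0% of them. These levels and those of the gated endothelial cells both lay higher in the 2 Diabetic libraries. Such a barcode can hold a pair of cells, and which cell the RNA came from was not tested.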
